A study of Rattus norvegicus with 144 samples.

Results

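The SLC25 family holds the carriers that move metabolites, nucleotides, cofactors and ions across the inner mitochondrial membrane. Its genes were taken from an RNA-seq table of the rat anterior cingulate cortex as every protein-coding row named Slc25a followed by a number. The rule gave 49 of 45785 genes, or 49 of the 23154 genes listed as protein coding. The study profiled male and female Long Evans rats in 24 groups of 4 to 7 libraries, 1 for each combination of sex, prenatal condition, adolescent condition and age. The prenatal conditions were ethanol (PAE), pair-fed (PF) and free-choice liquid diet (FCL), and the adolescent conditions were water as a control (VEH) and alcohol (AAE). Brains were taken on postnatal day 42, which was 24 h after the adolescent exposure ended, or on day 90 in adults that had no further challenge. The labels name no animal, dam or litter for a library, so p-values measure the spread between libraries, some of which may share a litter or be technical.

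Carriers of this family share a fold of repeated modules that form a single pore-like binding site, open to the intermembrane space or to the matrix in turn. The ADP/ATP carriers export the ATP made by oxidative phosphorylation, the phosphate carrier brings in its phosphate, and the aspartate/glutamate and oxoglutarate carriers run the malate-aspartate shuttle. In brain, that shuttle carries reducing equivalents from glycolysis into mitochondria, and the glutamate carriers feed a transmitter's carbon skeleton into the citric acid cycle. The carriers are made in the cytosol and inserted into the inner membrane by the TOM and TIM22 import machinery.

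Total counts per library ran from 10.6 M to 34.4 M reads assigned to genes, with a median of 14.0 M. In all, 5 libraries failed a check on sex-linked genes, on olfactory mucosa genes or on the number of genes detected. Replicate numbers used here count the libraries of a group in the order of the samples and are not in the labels. Adult PF VEH female replicate 6 had the fewest detected genes, 15631. Its Slc25 values lay below all other libraries of its group for 30 members and above them for 13. FCL AAE adult female replicate 1 and PF VEH adolescent male replicate 6 held olfactory mucosa genes at 2464 and 2769 CPM (counts scaled to library size, Omp plus Cyp2a3). In 2 libraries, 1 labelled PF AAE adolescent female and 1 labelled PAE VEH adolescent male, Xist went against the label. The check used Xist alone, which does not settle the sex of either animal. Summed over 5 sex-linked genes, the lowest adolescent female value was 1.32 CPM, against 156.0 to 406.6 in adolescent males. Values without these libraries are given beside several results below. Every neuronal, astrocyte and oligodendrocyte marker had a median above 0 in each set of 1 sex and age. Of the 4 olfactory mucosa genes, only Obp2a had a median of 0 in these sets. Their summed level had medians of 0.593 to 0.773 CPM over the sets.

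Levels between genes are compared as FPKM, the authors' values per gene length. Slc25a4, the ADP/ATP carrier of postmitotic tissues, had the highest level, with a lowest, median and highest value of 289.3, 397.2 and 539.6 FPKM over all libraries. Slc25a3, the phosphate carrier, followed with 168.6, 215.7 and 265.4 FPKM. Slc25a5, the ADP/ATP carrier of proliferating and many other cells, stood at 116.1, 178.9 and 225.4 FPKM. Slc25a23, a calcium-regulated carrier that exchanges ATP-Mg for phosphate, had a lowest and highest value of 65.58 and 255.5 FPKM and a median just below that of Slc25a5. The ranges of Slc25a5 and Slc25a23 overlapped almost entirely, while the lowest Slc25a4 value was above the highest of the other 3 genes. These 4 genes, all adenine nucleotide or phosphate carriers, made up a median of 71.3% of the summed FPKM of the family, with 67.5% to 74.5% over the libraries.

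The next 4 genes were far lower. Slc25a11, the oxoglutarate/malate carrier, had a median of 52.5 FPKM. Slc25a12, the calcium-regulated aspartate/glutamate carrier aralar, had a median of 42.5 FPKM. These 2 carriers of the malate-aspartate shuttle thus came next, while Slc25a13, the other aspartate/glutamate carrier, had a median of 1.83 FPKM. Slc25a22, a mitochondrial glutamate carrier, had a median of 28.2 FPKM. Slc25a46, a member that sits in the outer membrane and bears on mitochondrial shape, had a median of 26.1 FPKM. In all, 18 members had a median of 10 FPKM or more, 20 had 1 to 10 FPKM and 11 were under 1 FPKM. Medians of these first 8 genes moved by less than their spread when the 5 libraries that stand apart were left out.

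**Figure D1:**
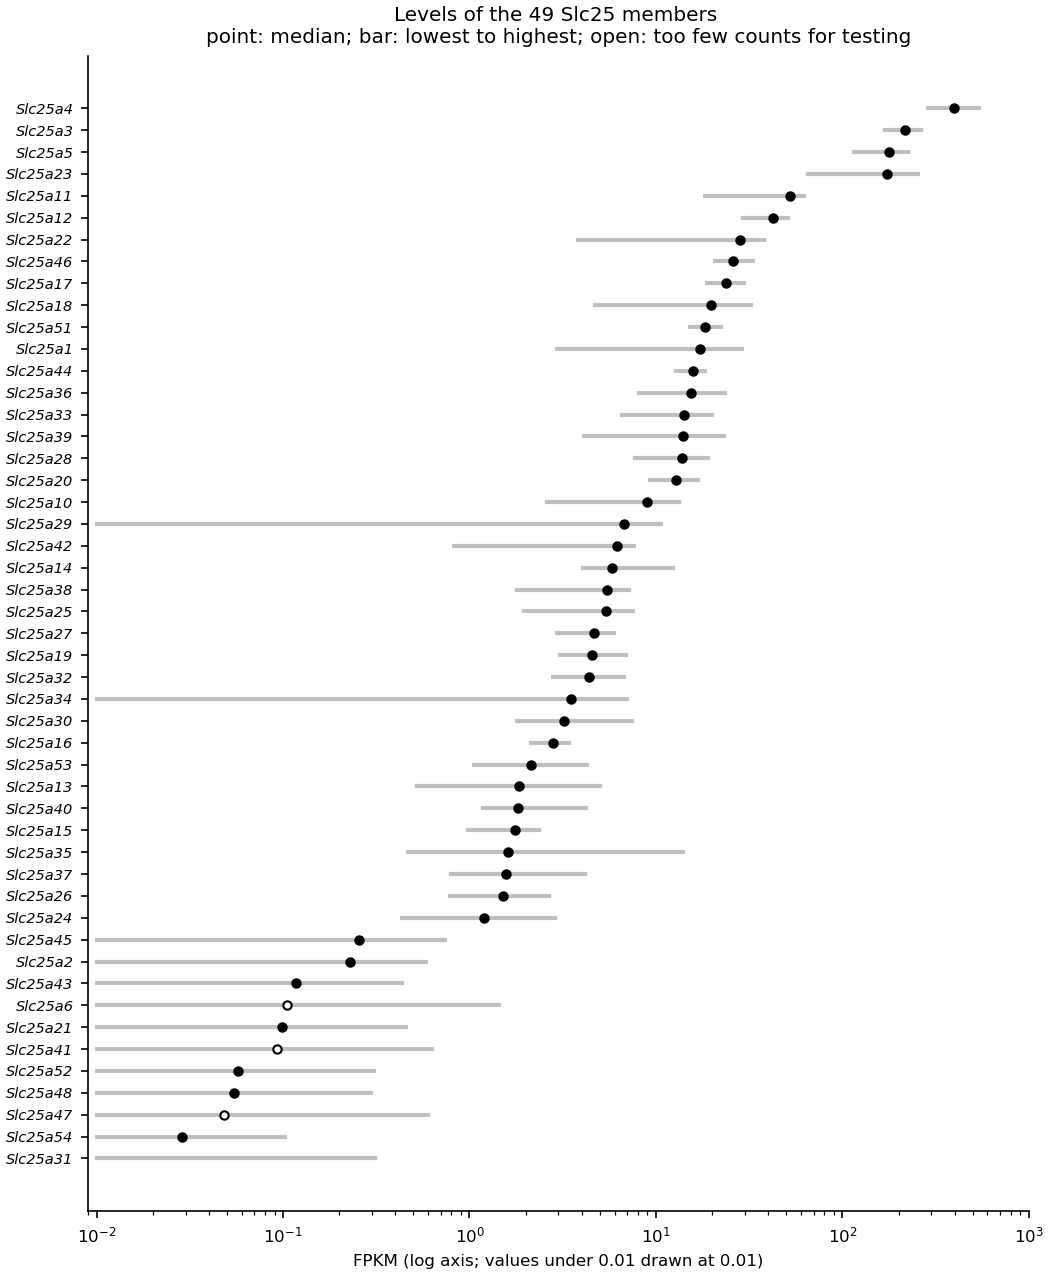
Each row is a member of the family, with its median FPKM over all libraries as a point and the lowest to highest value as a bar, on a log axis. Slc25a4, Slc25a3, Slc25a5 and Slc25a23 lead, with medians from 397.2 FPKM for Slc25a4 downward, and 11 members have medians under 1 FPKM; Slc25a31, with a median of 0, has no point.

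At the low end, 4 members had too few counts for testing. Slc25a31, the ADP/ATP carrier of testis, was listed at 0 in most libraries and had 130 counts in all. Slc25a41, an ATP-Mg/phosphate carrier without the calcium-binding part, had 358 counts, and Slc25a47, a carrier described in liver, had 245. The Slc25a6 row had 348 counts in all. Counts in these 4 rows amounted to a median of 0 to 0.137 CPM, which leaves their presence in this tissue undecided at this depth. Reads of near-identical copies cannot be placed with certainty here. The table holds 35 further rows named as copies or pseudogenes of members, of which 4 reached a median of 1 CPM, led by Slc25a51l1 at 4.65.

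Several rows overlap other genes, and the libraries are not strand-specific, so the reads of such neighbours cannot be told apart. In all, 27 members overlap another gene of the table and 18 a protein-coding gene. The Slc25a22 row (chr1:205954713-205966188, minus strand) contains the whole of Cend1, a gene of neuronal differentiation on the same strand, which is listed with 0 counts in all libraries. The Slc25a16 row likewise contains Dna2, which is listed with 0 counts. Values of Slc25a22 and Slc25a16 may therefore include reads of those genes. The Slc25a42 row contains the whole of Tmem161a, which lies on the other strand and is listed at a median of 17.5 CPM. Slc25a40 shares 10117 bases with Rundc3b, also on the other strand (42.9 CPM). Whether reads of these neighbours enter the Slc25a42 and Slc25a40 values was not tested. Slc25a24 and Slc25a54 share 9052 bases on the same strand.

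Spread within groups differed between members, also among the abundant ones. The median coefficient of variation of scaled CPM within groups was 13.3% over the 45 tested members, from 5.37% for Slc25a44, a carrier of branched-chain amino acids, to 77.1% for Slc25a52. It was 10.1% for Slc25a4 and 7.28% for Slc25a3, but 15.65% for Slc25a23. Of other members at 10 FPKM or more, Slc25a39 stood at 16.1%, Slc25a18 at 16.8% and Slc25a36 at 17.6%. The summed FPKM of all members had a median of 1352 in adolescent females (1219 to 1692, n = 34) and 1358 in adult females (903.9 to 1645, n = 35). It was 1340 in adolescent males (1230 to 1539, n = 39) and 1360 in adult males (1220 to 1636, n = 36). The 4 sets overlapped almost fully. Without the libraries that stand apart, the lowest value in adult females was 1242. In bulk tissue, fewer cells of a type and less RNA per cell cannot be told apart, which bears on every difference below.

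Age was compared as adults over adolescents, with the 6 treatment groups of each sex weighted equally, in edgeR's quasi-likelihood test on the counts of all libraries. Over both sexes, 10 of the 45 tested members passed an adjusted p of 0.05, with 5 higher and 5 lower in adults. Among all 20137 genes tested, 22.2% passed (11.6% higher, 10.6% lower), so the members' share of 22.2% matched the background. The median absolute log2 fold change was 0.055 over the members and 0.080 over all genes. Changes were small: each of the 10 differed by less than 0.2 on the log2 scale. Values per library below are CPM, counts scaled to library size with TMM factors.

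Slc25a27, a brain carrier related to the uncoupling proteins and also called UCP4, had the smallest p-value. Its lowest, median and highest values were 37.5, 49.5 and 59.0 CPM in adolescent females and 29.4, 44.5 and 56.4 in adult females. In males they were 37.7, 50.5 and 61.3 at day 42 and 32.7, 47.2 and 57.7 at day 90. Adult medians were lower in both sexes while the ranges overlapped. Over both sexes Slc25a27 fell by 0.152 ± 0.032 on the log2 scale (SE, edgeR adjusted p = 0.000111). The adult mean was lower in 12 of the 12 pairs of groups with the same sex and treatment. Slc25a14, another brain member of the uncoupling-related branch, went the other way, from a median of 38.3 to 39.1 in females and from 36.3 to 39.3 in males. Its change was 0.089 ± 0.030 over both sexes (edgeR adjusted p = 0.0209), higher in 11 of 12 pairs. The third gene of this branch, Slc25a30, did not pass (0.063 ± 0.042, edgeR adjusted p = 0.302).

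The mitochondrial glutamate carriers split. Slc25a22 had medians of 273 CPM in adolescent females and 236 in adult females, with ranges of 190.4 to 347.4 and 33.7 to 305. In males the medians were 279 and 254, with ranges of 195.5 to 344.1 and 192.7 to 295.4. The low end in adult females was set by the PF VEH replicate 6, and the ranges overlapped in both sexes. Slc25a22 fell by 0.175 ± 0.043 over both sexes (edgeR adjusted p = 0.00087), lower in 12 of 12 pairs, and by 0.156 ± 0.029 without the libraries that stand apart. Slc25a18, a glutamate carrier known mainly from astrocytes in brain, rose by 0.142 ± 0.046 (edgeR adjusted p = 0.016). Its medians went from 89.9 to 97.3 in females and from 93.6 to 106.3 in males, with adults higher in 10 of 12 pairs. Neither aspartate/glutamate carrier passed, with Slc25a12 at -0.033 ± 0.020 and Slc25a13, the form known from liver, at 0.009 ± 0.081.

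Slc25a28 (mitoferrin-2), an iron importer, rose by 0.129 ± 0.030 over both sexes (edgeR adjusted p = 0.000408). Its lowest, median and highest values were 16.5, 22.03 and 25.7 in adolescent females against 12.2, 23.9 and 31.4 in adult females. In males they were 16.2, 21.3 and 29.6 against 19.6, 23.4 and 32.1. Adults were higher in 9 of 12 pairs, and the ranges overlapped. Slc25a38, the glycine carrier of haem synthesis, rose by 0.097 ± 0.032 (edgeR adjusted p = 0.0172), from 21.9 to 23.2 in females and from 21.1 to 23.2 in males. The erythroid-type iron importer Slc25a37 did not pass (-0.022 ± 0.048), nor did the glutathione carrier Slc25a39 (0.043 ± 0.042) or the related Slc25a40 (0.050 ± 0.043).

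Slc25a1, the citrate carrier that exports citrate for lipid synthesis, fell by 0.146 ± 0.044 (edgeR adjusted p = 0.00861). Its medians were 28.7 and 27.02 in adolescent and adult females and 31.1 and 26.6 in males, with adults lower in 11 of 12 pairs. Slc25a36, a pyrimidine nucleotide carrier, fell by 0.124 ± 0.042 (edgeR adjusted p = 0.022), and Slc25a51, the NAD carrier, fell by 0.057 ± 0.018 (edgeR adjusted p = 0.0122). Both were lower in 11 of 12 pairs. Slc25a33, the other pyrimidine nucleotide carrier, stood at -0.043 ± 0.032 and did not pass. Slc25a25, a calcium-regulated ATP-Mg/phosphate carrier, was higher by 0.076 ± 0.029 with an edgeR adjusted p of 0.0498, and in 17 of 25 alternative settings its adjusted p was above 0.05. The most abundant members did not pass: Slc25a4 at 0.032 ± 0.025, Slc25a3 at 0.038 ± 0.019, Slc25a5 at -0.020 ± 0.024 and Slc25a23 at 0.059 ± 0.039. Their 95% intervals stayed within 0.135 on the log2 scale in either direction.

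**Figure D2:**
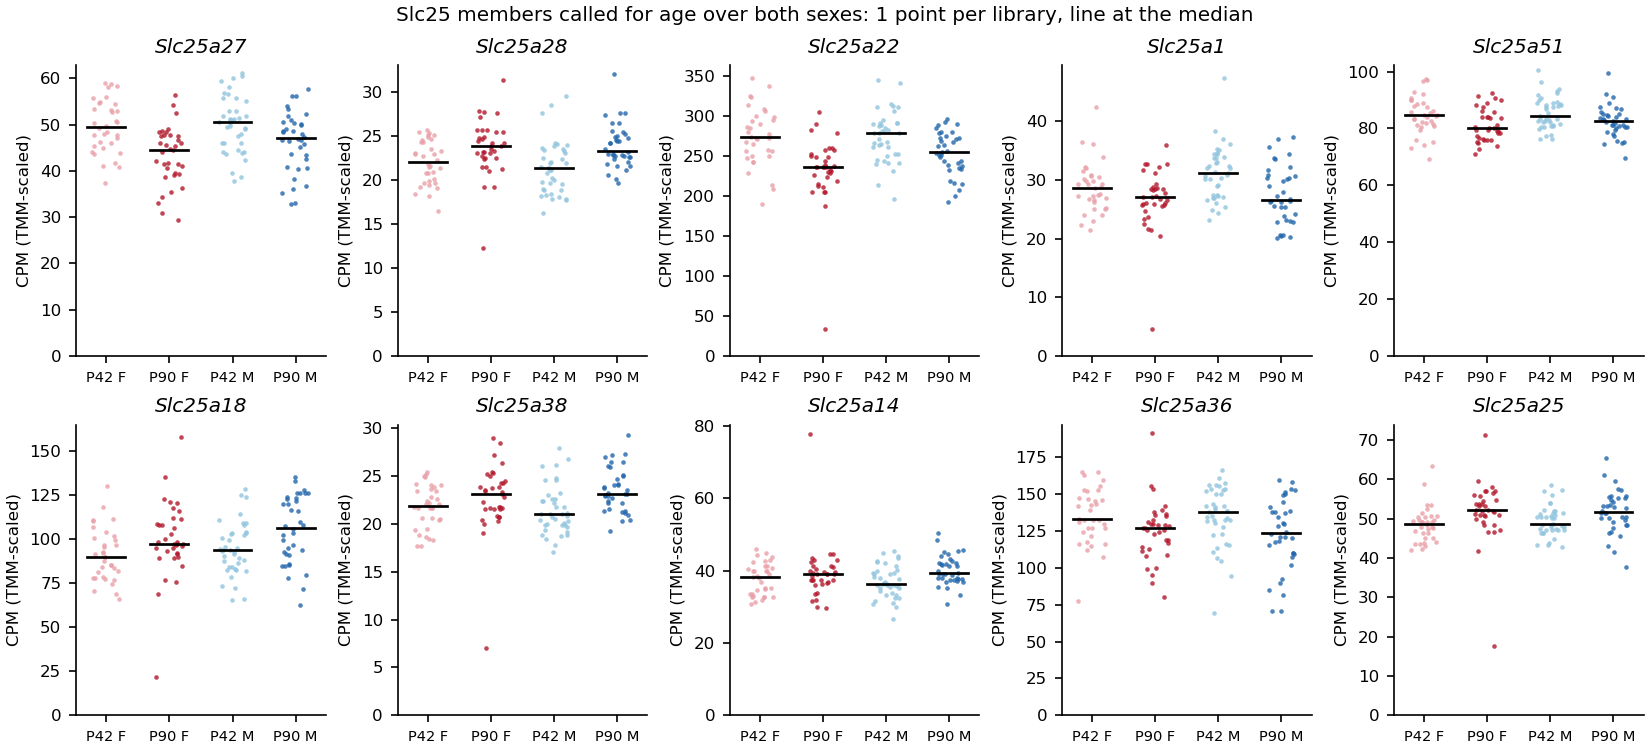
Each panel is a member called for age over both sexes, with TMM-scaled CPM of each library by age and sex and a line at the median. The adult medians of Slc25a27 and Slc25a22 lie below the adolescent ones in both sexes while the points overlap, and the isolated low points of Slc25a22, Slc25a1 and Slc25a18 are PF VEH adult female replicate 6.

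By role, the 10 called members were spread over 7 of the 8 groups into which the family was sorted. Of the 6 tested adenine nucleotide and phosphate carriers 1 was higher, and of the 4 aspartate and glutamate carriers 1 was higher and 1 lower. Of the 4 di- and tricarboxylate carriers 1 was lower. Of the 10 cofactor, pyrimidine nucleotide and methyl donor carriers 2 were lower. Of the 6 carnitine and amino acid carriers 1 was higher, as was 1 of the 4 iron and glutathione carriers. Of the 3 uncoupling-related carriers 1 was higher and 1 lower. None of the 8 tested members of the outer membrane and unassigned group passed.

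The upstream sequence is shown for the most abundant member and for 3 members called for age, 2 lower and 1 higher in adults. These are bases before the gene start, 5′ to 3′ on the gene's strand, from RefSeq's promoter table for GRCr8, and 41 of the 49 members matched an entry there. Capitals mark the motif CCAAT, the GC box with the letters GGGCGG and the TATA-like motif TATAAN, on either strand, and matches may overlap. Slc25a4 is at chr16:52805271-52805520 (plus strand), Slc25a27 at chr9:24804058-24804182 (plus), Slc25a1 at chr11:96559804-96560053 (plus) and Slc25a28 at chr1:252491366-252491592 (minus).
Slc25a4: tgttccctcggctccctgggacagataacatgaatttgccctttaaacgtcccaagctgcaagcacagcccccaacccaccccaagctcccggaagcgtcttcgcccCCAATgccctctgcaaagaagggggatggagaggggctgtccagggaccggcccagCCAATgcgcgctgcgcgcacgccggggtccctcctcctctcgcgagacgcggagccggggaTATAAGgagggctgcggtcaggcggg
Slc25a27: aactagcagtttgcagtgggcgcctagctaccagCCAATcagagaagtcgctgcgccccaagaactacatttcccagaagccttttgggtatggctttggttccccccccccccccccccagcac
Slc25a1: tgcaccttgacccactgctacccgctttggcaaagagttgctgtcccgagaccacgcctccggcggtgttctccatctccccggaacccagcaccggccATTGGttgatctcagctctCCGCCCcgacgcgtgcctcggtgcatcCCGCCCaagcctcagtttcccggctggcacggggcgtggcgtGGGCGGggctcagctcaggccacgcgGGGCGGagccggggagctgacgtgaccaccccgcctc
Slc25a28: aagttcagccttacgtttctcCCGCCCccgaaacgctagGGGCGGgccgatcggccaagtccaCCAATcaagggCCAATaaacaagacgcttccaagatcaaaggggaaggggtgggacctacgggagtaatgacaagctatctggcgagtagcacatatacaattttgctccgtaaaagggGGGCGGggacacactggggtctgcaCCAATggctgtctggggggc
The Slc25a4 stretch held 2 CCAAT matches and 1 TATAAN match, the Slc25a27 stretch 1 CCAAT match, the Slc25a1 stretch 1 CCAAT match and 4 GC boxes, and the Slc25a28 stretch 3 CCAAT matches and 3 GC boxes. The promoter windows were searched over their first 250 bases, without trimming at the gene start. For Slc25a27 this reached past the gene start, and its window held a GC box that the printed stretch lacks. CCAAT was in 51.2% of the 41 member windows and in 34.3% of 27457 windows of the table. The GC box was in 56.1% against 32.4%, and TATAAN in 12.2% against 24.1%. The palindromic core of the NRF-1 binding motif, searched by exact letters, was in 0 of the 41 windows and in 0.849% of all. These matches describe the letters of the windows only.

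Within each sex fewer members passed. In females 2 members were lower and 0 higher in adults, against a background of 9.02% of genes (4.81% higher, 4.21% lower). Slc25a27 fell by 0.193 ± 0.046 (edgeR adjusted p = 0.00217) and Slc25a22 by 0.238 ± 0.061 (edgeR adjusted p = 0.00496). Without the libraries that stand apart 5 members passed in females (background 10.3%): the same 2, at -0.156 ± 0.045 and -0.189 ± 0.041, and 3 higher, Slc25a25, Slc25a28 and the coenzyme A carrier Slc25a42. With the same libraries left out, 11 members passed over both sexes (background 26.4%), the added one again being Slc25a42 (0.094 ± 0.024, edgeR adjusted p = 0.00171).

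In males 3 members were higher and 1 lower in adults, against a background of 13.1% (6.95% higher, 6.11% lower). Slc25a28 rose by 0.151 ± 0.041 (edgeR adjusted p = 0.00627), and Slc25a38 and Slc25a14 by 0.128 and 0.123. Slc25a1 fell by 0.176 ± 0.061 (edgeR adjusted p = 0.0386). Without the libraries that stand apart 7 members passed in males (background 16.9%), adding Slc25a18 (higher) and Slc25a22 and Slc25a27 (lower). Without PAE VEH adult male replicate 2 the count was 2, since Slc25a1 and Slc25a14 no longer passed. With the PF VEH and FCL VEH groups alone, 0 members passed in females (background 0.513%) or in males (2.06%) and 1, Slc25a27, over both (-0.200 ± 0.053, edgeR adjusted p = 0.0149, background 6.22%). In those control groups Slc25a27 was at -0.247 ± 0.076 and Slc25a22 at -0.249 ± 0.146 in females. In males Slc25a28 was at 0.217 ± 0.077 and Slc25a38 at 0.139 ± 0.095. Each of these was at least as far from 0 as with all groups, with a larger SE. Slc25a14 (0.048 ± 0.086) and Slc25a1 (-0.109 ± 0.122) in males were nearer to 0 than with all groups. Over both sexes Slc25a18 (0.085 ± 0.088), Slc25a38 (0.058 ± 0.068), Slc25a36 (-0.095 ± 0.064) and Slc25a25 (0.060 ± 0.066) were nearer to 0. The rest of the members called over both sexes were at least as far from it.

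The difference between the sexes in their age change was tested directly. In edgeR 0 of 45 members passed, 3 had an unadjusted p under 0.05 (5.28% of all genes did), and DESeq2 also gave 0 members; 0.0% of all genes passed in edgeR. The smallest member p belonged to Slc25a35, a carrier without an established substrate (0.635 ± 0.210, edgeR adjusted p = 0.797). Slc25a35 had medians of 1.57 FPKM in adolescent females, 1.66 in adult females, 1.63 in adolescent males and 1.51 in adult males. Both libraries with olfactory mucosa genes stood far above these, at 13.99 and 13.81 FPKM, where the other libraries of their groups lay between 0.917 and 2.10 FPKM. Without the libraries that stand apart the difference was 0.286 ± 0.148 (edgeR adjusted p = 1.0).

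**Figure D3:**
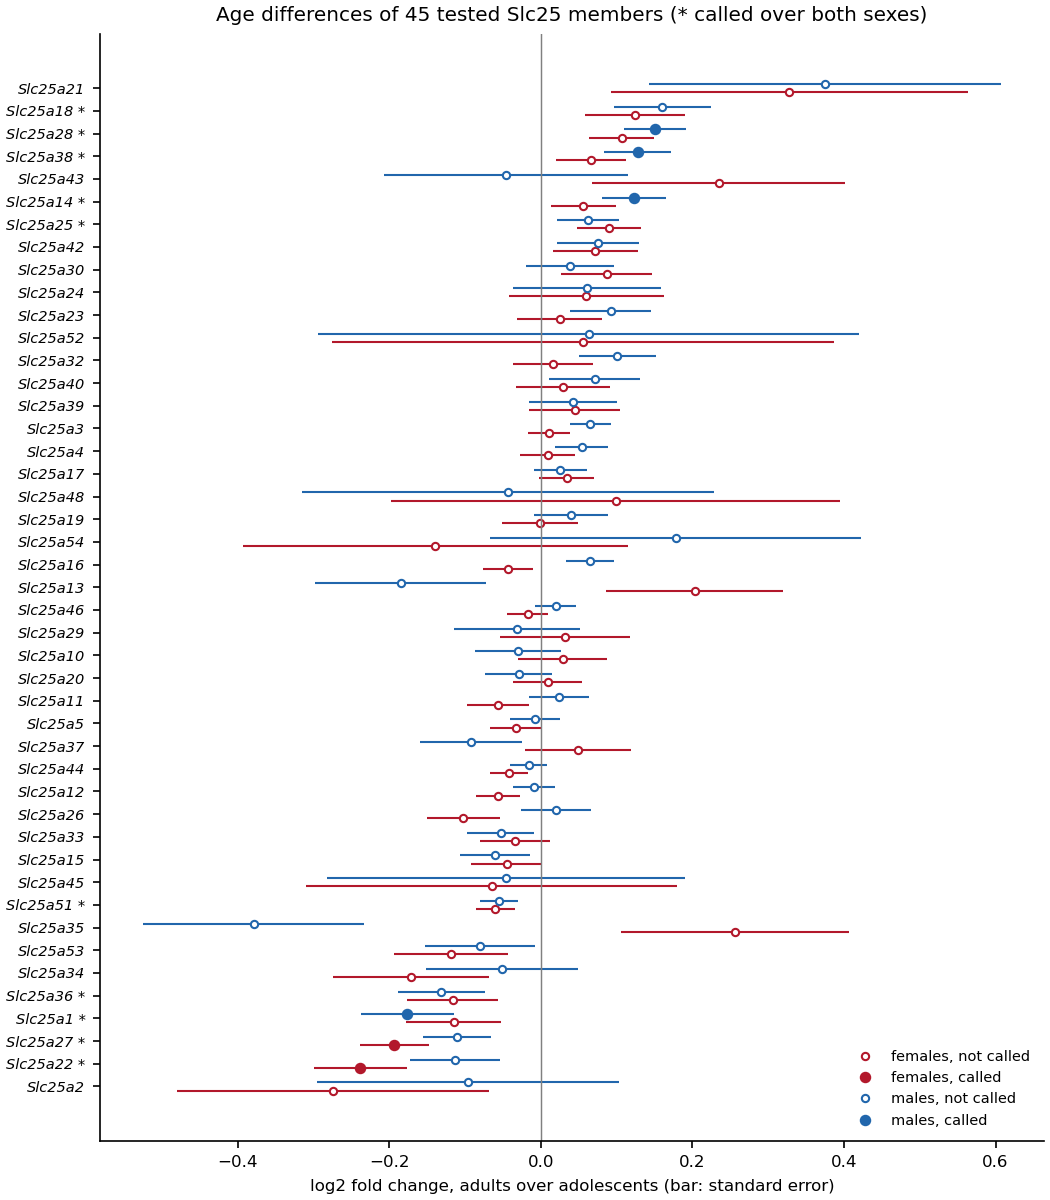
Rows are the 45 tested members, ordered by their log2 fold change over both sexes, with the log2 fold change of adults over adolescents in females and males and its standard error as a bar. Filled points passed an adjusted p of 0.05 within that sex, 2 in females and 4 in males, and stars mark the 10 called over both sexes.

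Females and males were also compared at each age. In adolescents 0 of 45 members passed in edgeR (0.119% of all genes did), with 3 at an unadjusted p under 0.05 against 5.91% of all genes. In adults 0 passed in edgeR (0.0844%), with 3 at an unadjusted p under 0.05 against 4.73%. DESeq2 gave 0 members in both. The smallest p was that of Slc25a16 in adolescents, a carrier tied to coenzyme A, at 0.080 ± 0.032 (edgeR adjusted p = 0.691). In adults it was Slc25a35, at 0.351 ± 0.150 (edgeR adjusted p = 0.98), and at 0.169 ± 0.106 without the libraries that stand apart, among them the adult female library at 13.99 FPKM.

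The table also holds comparisons made by the authors, under short headers that name 2 groups each. For adolescents against adults, 10 of 49 members had an adjusted p under 0.05 in the authors' deposited table, against 12.1% of 39852 genes. All 10 members were also called here, each in the same direction. The authors' background spans more genes than the 20137 tested here, which passed a filter on low counts. It is therefore not like the 22.2% given above. The authors' deposited table gave Slc25a27 a log2 fold change of 0.159 and Slc25a22 one of 0.177, positive where adolescents are higher, and Slc25a28 one of -0.130. No member passed in the authors' deposited table for females against males (0.0703% of genes), for ETOH against CTL (0.00502%), for PF against FCL (0.0%), for ET against PF (0.00781%) and for ET against FCL (0.013%).

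Pairs of carriers with a shared substrate were compared within each library as the log2 ratio of counts per length, with a pseudocount of 0.5 counts. A two-sided permutation test with 100000 resamples compared adults with adolescents in each sex, with Benjamini-Hochberg adjustment over 16 tests. The Slc25a22 to Slc25a18 ratio fell in both sexes. In females it went from 0.675 ± 0.339 (SD, n = 34) to 0.298 ± 0.300 (n = 35), a change of -0.377 (permutation adjusted p = 0.00064). In males it went from 0.622 ± 0.290 to 0.359 ± 0.342, a change of -0.262 (permutation adjusted p = 0.00341). Expressed as a fold, Slc25a22 was 1.60 times Slc25a18 in adolescent females and 1.23 times in adult females, with the limit on Slc25a22 and Cend1 reads given above.

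The iron importers shifted in males, where Slc25a28 stood 7.79-fold above Slc25a37 in adolescents and 9.24-fold above it in adults (a change of 0.248 on the log2 scale, permutation adjusted p = 0.00224). In females the same change was 0.065 (permutation adjusted p = 0.753). The difference between the sexes was not tested. Slc25a4 stood 2.17-fold above Slc25a5 in adolescent males and 2.27-fold in adult males (0.063, permutation adjusted p = 0.0194), and 2.19-fold and 2.25-fold in females (0.043, permutation adjusted p = 0.151). The remaining pairs did not pass in either sex. Slc25a23 lay 32.2- to 33.7-fold above Slc25a25 over the 4 sets, Slc25a12 lay 21.8- to 26.1-fold above Slc25a13, and Slc25a39 lay 7.46- to 7.76-fold above Slc25a40. Slc25a36 and Slc25a33 were near equal, at ratios of 0.996 to 1.12, and Slc25a16 was at 0.445 to 0.480 of Slc25a42.

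**Figure D4:**
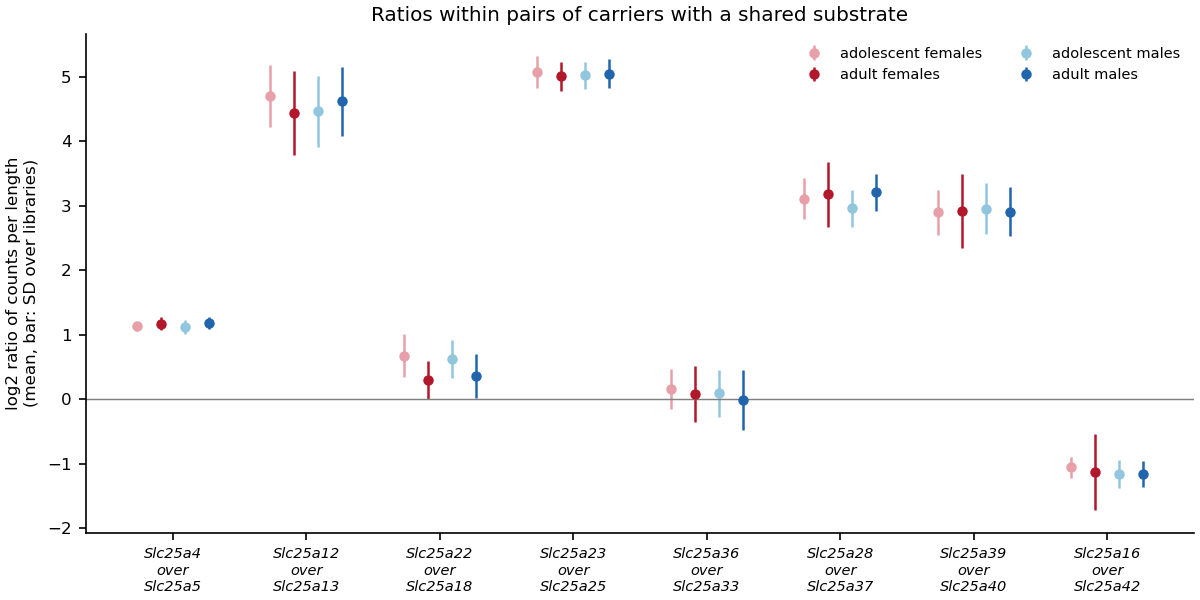
The mean log2 ratio of counts per length is shown for 8 pairs of carriers, with the SD over libraries as a bar, for adolescents and adults of each sex. The Slc25a22 to Slc25a18 ratio is lower in adults of both sexes (0.298 and 0.359) than in adolescents (0.675 and 0.622), and the pairs differ far more from each other than the ages do.

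Genes around the carriers were read from lists of their partners, over both sexes and against the same background of 11.6% higher and 10.6% lower. Of 18 citric acid cycle genes 9 were higher and 1 lower in adults, including succinyl-CoA ligase Suclg1 (0.091 ± 0.024) and isocitrate dehydrogenase Idh2 (0.141 ± 0.038). Their median was 0.053, against -0.005 over all genes. Within females 0 of the 18 were higher and 1 lower (background 4.81% and 4.21%), with a median of 0.026. Within males 6 were higher and 0 lower (background 6.95% and 6.11%), with a median of 0.070. The difference between the sexes was not tested for this list. Of 5 tested creatine phosphate and adenylate genes 3 were higher, among them the adenylate kinases Ak3 and Ak4 (0.076 and 0.089). Of 11 porin and calcium uptake genes 3 were higher, including the calcium uptake regulator Micu2 (0.104 ± 0.019) and the porins Vdac2 (0.073 ± 0.018) and Vdac3, which pass metabolites across the outer membrane.

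For the citrate that Slc25a1 exports, 4 of 7 genes of its use in lipid synthesis were lower and 1 higher. The elongase Elovl6 fell by 0.283 ± 0.038, fatty acid synthase Fasn by 0.134 ± 0.032, and the regulator Srebf1 rose by 0.202 ± 0.051. For pyruvate, the fuel that competes with other sources at the cycle's entry, 3 of 10 genes were higher and 2 lower, with the dehydrogenase kinase Pdk2 at 0.208 ± 0.031 and the complex component Pdhx at -0.122 ± 0.021. In the haem and iron-sulfur list 2 of 11 were higher and 2 lower, with ferritin heavy chain Fth1 at 0.302 ± 0.044 and the scaffold Iscu at 0.177 ± 0.030. The import machinery had 3 of 15 higher and 0 lower, led by Tomm20 (0.116 ± 0.029). Fatty acid oxidation had 3 of 12 higher, led by Acadl (0.207 ± 0.041). Biogenesis and dynamics had 3 of 13 higher and 1 lower, led by Tfam (0.101 ± 0.025). The malate-aspartate shuttle enzymes had 1 of 4 higher (Got1, 0.099 ± 0.021), and glutamate metabolism 1 of 7 (Gls2, 0.167 ± 0.037). Of 3 tested relatives with the carrier fold, 1 was lower (Mtch2, -0.082 ± 0.020).

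Markers of cell types also moved with age. Oligodendrocyte markers had 4 of 6 lower in adults with a median of -0.444, and their summed level ran from 2385 to 19680 CPM in adolescent females (median 5931) and from 2595 to 12150 in adult females (median 6125). In males it ran from 2944 to 23960 (median 8537) in adolescents and from 2072 to 16600 (median 5841) in adults. Oligodendrocyte precursor markers had 3 of 5 lower, endothelial and mural markers 3 of 7, microglial markers 3 of 6 lower and 1 higher, meningeal markers 1 of 6 lower and red cell markers 6 of 6 lower with a median of -1.52. Neuronal markers had 1 of 7 higher and 1 lower, and astrocyte markers 1 of 6 in each direction. The part of these shifts in the age differences of the carriers was not tested.

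The prenatal and adolescent exposures were compared within each sex and age, in 24 comparisons that share control groups. In edgeR 0 of 1056 member tests passed an adjusted p of 0.05, as did 0.0% of all 435030 tests. An unadjusted p under 0.05 was found in 51 member tests, or 4.83%, against 4.91% of all tests, and 21 members had none. DESeq2 gave 1 member call, described below for Slc25a26. Pooled over sexes and ages, 0 members passed for PAE against PF (0.0149% of all genes), for PAE against FCL (0.0149%) and for AAE against VEH (0.00497%), and 0 in DESeq2. An unadjusted p under 0.05 was found for 1, 1 and 5 members, against 7.61%, 5.29% and 7.57% of all genes.

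Intervals were narrow for the abundant carriers. For the 18 members at 10 FPKM or more, all 54 pooled 95% intervals lay within 0.2 on the log2 scale of 0, and the bound farthest from 0 was 0.181 (Slc25a22, PAE against PF). Within a sex and age, 215 of 216 intervals lay within 0.4, and the exception, Slc25a1 for PAE against FCL in adult females, ran from -0.467 to 0.104. All 216 estimates were under 0.2, with the largest, 0.18, for Slc25a23 in PAE against FCL adult males.

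The smallest member p in the pooled comparisons was that of Slc25a24, a calcium-regulated ATP-Mg/phosphate carrier of low level, for PAE against PF (-0.267 ± 0.088, edgeR adjusted p = 0.414). For PAE against FCL it was Slc25a26 (0.108 ± 0.041, edgeR adjusted p = 0.813), and for AAE against VEH Slc25a38 (0.071 ± 0.032, edgeR adjusted p = 0.582). None of these passed.

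In adult females Slc25a13 had the smallest member p for PAE against PF (-0.660 ± 0.202, edgeR adjusted p = 0.585) and for PAE against FCL (-0.533 ± 0.203, edgeR adjusted p = 0.62). Its values were low and scattered: the median was 3.79 CPM in PAE AAE (3.41 to 5.33, n = 5) and 5.55 in PAE VEH (1.64 to 7.28, n = 6). PF AAE had a median of 9.09 (5.25 to 9.77) and PF VEH of 7.07 (3.40 to 10.02), so the AAE groups overlapped only at their ends and the VEH groups overlapped widely. For the other comparisons in adult females the smallest p-values belonged to Slc25a21, the oxoadipate carrier, for PF against FCL (-1.14 ± 0.44) and Slc25a46 for AAE against VEH (-0.106 ± 0.043). For both exposures against neither it was Slc25a24 (-0.814 ± 0.282), and for the alcohol effect in PAE less that in PF Slc25a18 (-0.642 ± 0.277). None passed, with edgeR adjusted p-values from 0.575 to 0.796. These values rest in part on the adult female libraries that stand apart: PF VEH replicate 6 had Slc25a18 at 4.69 FPKM (15.43 to 18.97 in the others of its group) and Slc25a24 at 2.69 FPKM (0.966 to 1.87). Slc25a21 was listed at 0 there and stood at 0.459 FPKM in FCL AAE replicate 1 (0.0568 to 0.308 in the others). Without both libraries Slc25a21 was at -0.840 ± 0.408, Slc25a46 at -0.080 ± 0.039, Slc25a24 at -0.651 ± 0.271 and Slc25a18 at -0.450 ± 0.169. Slc25a13 was then at -0.577 ± 0.196 against PF and -0.500 ± 0.196 against FCL, and none of these passed.

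In adult males the smallest p-values belonged to Slc25a52 for PAE against PF (-1.41 ± 0.63) and PAE against FCL (-1.63 ± 0.62), a row at a median of 0.243 CPM. Slc25a24 had it for PF against FCL (0.446 ± 0.173), Slc25a38 for AAE against VEH (0.084 ± 0.052), Slc25a23 for both exposures against neither (0.264 ± 0.109) and Slc25a28 for the alcohol effect in PAE less that in PF (0.243 ± 0.124). In adolescent males it was Slc25a43 for PAE against PF (-0.622 ± 0.266), Slc25a18 for PAE against FCL (-0.119 ± 0.086) and Slc25a35 for PF against FCL (0.567 ± 0.279). The dicarboxylate carrier Slc25a10 had it for AAE against VEH (0.170 ± 0.062) and for both exposures against neither (0.254 ± 0.107), and Slc25a33 for the alcohol effect in PAE less that in PF (-0.345 ± 0.136). The edgeR adjusted p-values of all these ran from 0.657 to 1.0. In PF VEH adolescent male replicate 6, a library with olfactory mucosa genes, Slc25a43 stood at 0.432 FPKM (0.0621 to 0.158 in the others of its group) and Slc25a35 at 13.81 FPKM. Without the 2 adolescent male libraries that stand apart, Slc25a43 was at -0.343 ± 0.244 for PAE against PF and Slc25a35 at 0.034 ± 0.157 for PF against FCL. In adolescent females, besides Slc25a26, it was Slc25a28 for PF against FCL (0.170 ± 0.064), Slc25a37 for AAE against VEH (0.185 ± 0.091) and Slc25a38 for the alcohol effect in PAE less that in PF (-0.305 ± 0.122), with edgeR adjusted p-values from 0.893 to 0.999.

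Slc25a26 was the member nearest to a call. It imports S-adenosylmethionine, the methyl donor used for mitochondrial RNA and protein methylation and for lipoate and coenzyme Q synthesis, and its row lies at chr4:128591223-128687854 on the plus strand. In adolescent females the PAE VEH libraries held 16.8, 23.1, 24.7, 26.4 and 32.4 CPM, and 4 of the 5 PAE AAE libraries 18.1, 21.6, 23.5 and 23.8, with the other between the first 2 of these. The lowest, median and highest values over both PF groups were 15.1, 17.6 and 20.1 (n = 12), and over both FCL groups 15.9, 18.4 and 22.9 (n = 12). Of the 10 PAE libraries 8 lay above every PF library and 2, PAE VEH replicate 1 and PAE AAE replicate 2, lay within the PF range.

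For Slc25a26, PAE exceeded PF by 0.404 ± 0.078 on the log2 scale (edgeR adjusted p = 0.175), which ranked 1 by p among the 18039 genes tested there and did not pass, as 0.0% of genes did. PAE exceeded FCL by 0.291 ± 0.078 (edgeR adjusted p = 0.68), and PF and FCL differed by -0.113 ± 0.075 (edgeR adjusted p = 0.893). PAE AAE exceeded PF VEH by 0.301 ± 0.111 (edgeR adjusted p = 1.0). These comparisons share groups. DESeq2 gave an adjusted p of 0.0136 for PAE against PF and called 0.0333% of genes. The same contrast in the edgeR fit of all libraries gave an adjusted p of 0.0491 (0.0199% of genes called). Without PAE VEH replicate 1 the difference was 0.462 ± 0.071 (edgeR adjusted p = 0.00292, 0.00544% of genes called). Without PAE VEH replicate 2 it was 0.347 ± 0.073 (edgeR adjusted p = 0.331). Without the adolescent female library that stands apart it was 0.406 ± 0.081 (edgeR adjusted p = 0.294). Slc25a26 also did not pass with RLE size factors, with no filter on low counts or with 2 surrogate variables.

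In the other sex and age sets the Slc25a26 values of PAE and PF lay closer together. In adolescent males the medians were 18.2 CPM in PAE, 18.6 in PF and 18.4 in FCL, with PAE less PF at -0.117 ± 0.076. In adult females PAE less PF was -0.029 ± 0.102 and in adult males 0.020 ± 0.074. Against FCL, PAE differed by 0.154 ± 0.074 in adult males (medians of 20.7 and 17.6 CPM, edgeR adjusted p = 0.999), by -0.007 ± 0.102 in adult females and by -0.010 ± 0.076 in adolescent males. The test of the difference between adolescent females and adolescent males gave 0.524 ± 0.115 (edgeR adjusted p = 0.123, 0.0% of genes called), and that between adolescent and adult females 0.434 ± 0.119 (edgeR adjusted p = 0.823). The same differences for PAE against FCL were 0.301 ± 0.115 (edgeR adjusted p = 1.0) and 0.296 ± 0.119 (edgeR adjusted p = 0.866). None of the 4 passed, and all 4 tests were added after the data had been seen.

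Depth and marker levels in the prenatal groups of adolescent females are given beside these values, and their part in the difference was not tested. Total counts had medians of 13.8 M in PAE, 14.0 M in PF and 13.3 M in FCL. Detected genes had medians of 23360, 23230 and 23000. Summed neuronal markers had medians of 5724, 5591 and 5751 CPM, and summed oligodendrocyte markers 6340, 5613 and 6212. Summed red cell markers had medians of 26.02 (7.73 to 94.5) in PAE, 40.7 (8.42 to 277.7) in PF and 47.8 (16.7 to 194.5) in FCL, so the ranges overlapped. Slc25a26 overlaps Lrig1, a receptor-regulating membrane protein on the other strand, by 132 bases. The whole Lrig1 row differed by -0.103 ± 0.077 between PAE and PF and did not pass (edgeR adjusted p = 0.961). Reads in the shared bases were not counted apart, and their part in the difference was not tested.

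**Figure D5:**
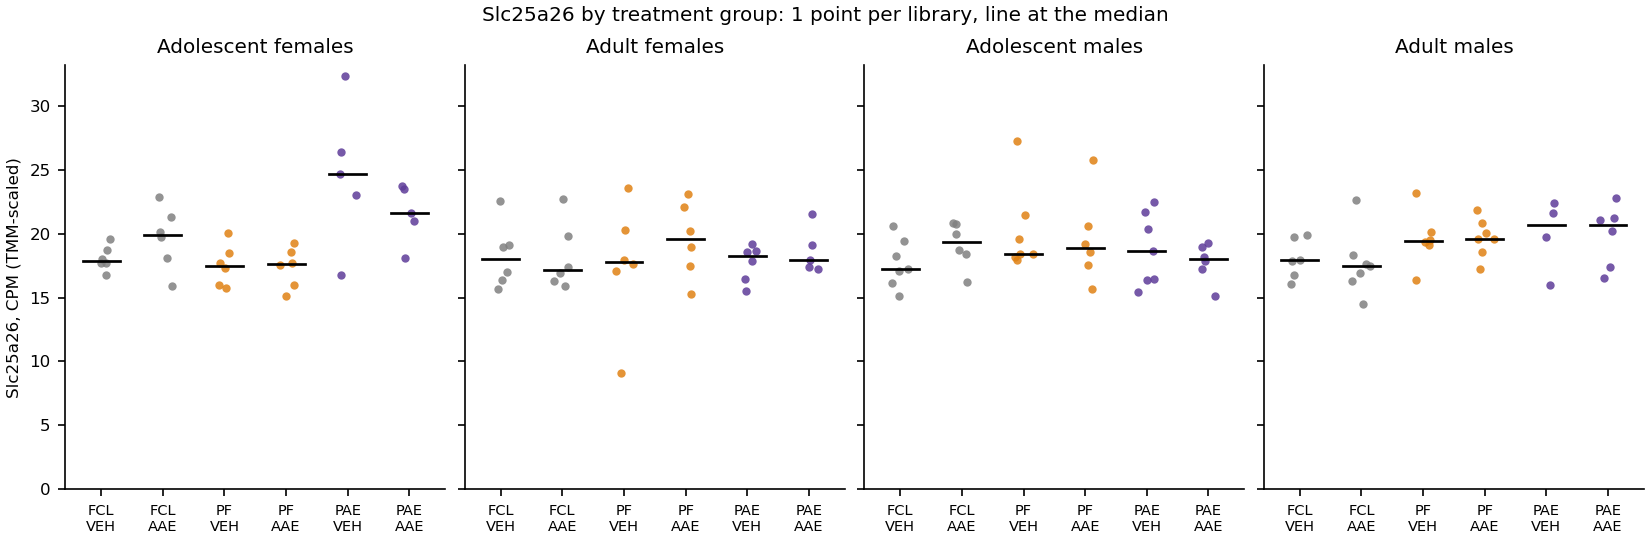
TMM-scaled CPM of Slc25a26 are shown for every library by prenatal condition and adolescent exposure, 1 panel per sex and age, with a line at each group's median. In adolescent females 8 of the 10 PAE libraries lie above the highest PF library (20.1), and the rest lie within the PF range. The PAE and FCL ranges overlap there, and the groups overlap in the other 3 panels.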

How the data were processed

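The authors' deposited table gives, per the file headers, whole-number counts and FPKM for 45785 genes in every library. Each deposited FPKM is the count divided by gene length and library size, with a factor between 0.944 and 1.045 that is fixed within a library. The authors' comparisons are deposited as log2 fold changes with raw and adjusted p-values, and the test behind them was not given in the sources. Per the labels' protocols, libraries were made from total RNA with random hexamers and without strand, and RNA integrity numbers were mostly above 6.3. The submitters' processing notes name fastp and HISAT2 2.0.5, but no source used here gives the read counter or the build. Gene positions of all 49 members equal RefSeq's GRCr8.

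Counts were tested with edgeR 4.0.16 (quasi-likelihood, TMM, filterByExpr with a minimum count of 10), with Benjamini-Hochberg adjustment over all genes tested, in 1 fit of all libraries in 24 groups for age, sex and pooled exposures, and in 4 fits by sex and age for the 24 exposure comparisons. Age and exposure contrasts weight treatment groups equally. Intervals are 95%, as estimate ± 1.96 SE. Total counts limit precision as given in the results. Scripts were tested on simulated data. Alternatives were DESeq2 1.42.0, RLE size factors, no filter, 2 surrogate variables (sva 3.50.0), fewer libraries and control groups only. Libraries were set apart where Xist went against the label, where Omp plus Cyp2a3 passed 500 CPM, or under 16000 genes. Named genes are members called in a comparison, the 8 most abundant, paralog pairs, untested members and the smallest p where none was called, and up to 3 called genes of each partner list. Others, such as Slc25a30 and Slc25a44, were named after their values were seen. The members and lists were chosen with earlier results of these data known. A gene of the marker lists is not reported here.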

Additional observations from a re-analysis of the deposited data

Results flagged for a closer look

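In 48 sets of values (24 groups, for the summed FPKM of the 49 members and for Slc25a26), 5 libraries lay far from the rest of their group, where chance flags about 5% of sets. PF VEH adult female replicate 6 had a summed FPKM of 903.9 against 1323 to 1383 in the other libraries, and it is also the library with the fewest detected genes. FCL AAE adult female replicate 4 had 1549 against 1210 to 1322. PF AAE adolescent male replicate 1 had 1539 against 1301 to 1375. PF VEH adolescent male replicate 4 had 1474 against 1256 to 1340. For Slc25a26, PF VEH adolescent male replicate 7 had 27.26 TMM-scaled CPM against 17.98 to 21.52 in the others.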

How the results depend on the processing

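No paired analysis was possible because the labels give no replicate numbers, animals or litters shared between groups. In all, 536 settings were tried for member counts, pair ratios and levels. Of these, 522 kept the same side of the threshold, a count within 1.5 times or a level within its spread. No result reversed. Exposure counts made up 330 of the settings, and 327 of those again gave 0 members, so the tally says little about age. Settings of single named members were not in the tally. The members called for age in females were 5 without the libraries that stand apart and 0 with PF VEH and FCL VEH alone. For age in males they were 7 without those libraries, 0 with those 2 control groups alone, 1 with no filter on low counts, and 2 to 4 when single libraries were left out, with 2 without PAE VEH adult male replicate 2. Over both sexes the count was 1 with those control groups alone, which hold fewer libraries, and 9 to 11 elsewhere. Of the 10 members called over both sexes, Slc25a27 kept its call in 25 of 25 settings and Slc25a25 lost it in 17. Each of the others lost it only with the control groups alone. In 19 of these settings 1 library was left out, always from a PAE group of 5 libraries or fewer. No PF or FCL library was left out alone in these fits. For PAE against PF in adolescent females 1 member, Slc25a26, was called with DESeq2 and with the contrast in the fit of all libraries. The count was 0 to 1 when each of the 10 PAE libraries was left out in turn. Of the PF and FCL libraries, only the PF library that stands apart was left out. The count was 0 without that library, with RLE size factors, with no filter and with 2 surrogate variables. Among pair ratios, Slc25a4 to Slc25a5 in females passed without the libraries that stand apart (0.048, permutation adjusted p = 0.027), as did Slc25a16 to Slc25a42 in females (-0.167, permutation adjusted p = 0.00496). With the control groups alone Slc25a4 to Slc25a5 in males (0.100, permutation adjusted p = 0.065) and Slc25a22 to Slc25a18 in females (-0.268, permutation adjusted p = 0.16) did not pass. The causes were not tested. Depth limits the 11 members under 1 FPKM, whose differences have wide errors. The alternatives for levels and for the Slc25a26 interaction were added after the data had been seen.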
